A study of Mus musculus with 12 samples.

Results

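Genes of cytoplasmic polyadenylation and translation control in the mouse oocyte were followed through meiotic maturation with and without the RNA demethylase ALKBH5. They are 10 of the 56691 genes in the table: *Cpeb1*, *Cpeb2*, *Cpeb4*, *Dazl*, *Ybx2*, *Pabpc1l*, *Eif4e1b*, *Eif4enif1*, *Sympk* and *Papola*. The choice was made by name and not by a cut on their values, though with earlier results of these data known. Each symbol matched 1 gene identifier, and all 10 genes passed the filter on low counts in every comparison. In WT oocytes, by edgeR, *Ybx2* and *Pabpc1l* fell from the germinal vesicle (GV) stage to metaphase II (MII). The other 8 did not pass that test on the spike-in scale, where DESeq2 also called *Cpeb1* and *Eif4e1b*. Counts of *Dazl* rose relative to those of the bulk of genes. No gene of the group passed the edgeR test between KO and WT with the filter on low counts used here. DESeq2 called *Pabpc1l* over all stages, beside 1356 of 22004 genes, and edgeR also did with some other filters.

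A fully grown oocyte is transcriptionally silent, and it makes new proteins from stored mRNAs whose poly(A) tails are short. CPEB proteins bind the cytoplasmic polyadenylation element (CPE) in the 3′UTR of such mRNAs, and together with symplekin, the cleavage and polyadenylation specificity factor on the hexamer AATAAA and a poly(A) polymerase they lengthen the tail when meiosis resumes. Before that, cap-binding and mRNP proteins hold the mRNA silent, and afterwards poly(A)-binding proteins on the new tail favour translation.

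The 12 libraries came from oocytes of 2 genotypes at 3 stages, with 2 libraries in each of 6 groups. WT and *Alkbh5*-/- (KO) oocytes were labelled GV (prophase arrest), GVBD (germinal vesicle breakdown, the resumption of meiosis) or MII (the next arrest). The knockout was total, made with CRISPR-Cas9 by ablating the exon that holds the start codon of *Alkbh5*. All mice were juvenile C57BL/6 females primed with PMSG, and their oocytes were matured in vitro, freed of the zona pellucida and pooled. Pools were taken by time in culture, and a selection of KO oocytes by stage was not found in the methods, so stage reached and genotype cannot be told apart in the later KO pools. The study calls the 2 samples of a group biologically independent, and the labels do not say whether they came from separate animals. The p-values measure only the spread between these libraries.

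Total counts, in 1e6, ranged from 28.6 to 40.2 per library, of which 221927 to 838409 fell on the ERCC spike-in, synthetic RNAs added to every tube. *Alkbh5* received 5355 to 10181 counts in WT libraries and 54 to 143 in KO libraries. All 11 oocyte markers were detected in every library, with summed levels of 12200 to 27200 CPM (counts scaled to the library total). The 12 cumulus and granulosa markers summed to 33.3 to 76.9 CPM, highest in KO MII replicate 2, where *Cyp19a1* alone stood at 72.2 CPM. Of these 12, 6 were at 0 in some library and *Amhr2* was at 0 in all. The same KO MII replicate 2 had the fewest detected genes (19837). Calls of members in the comparisons that use it are given with and without it. Calls of other genes of the pathway are given only with it.

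The 3′ ends of the annotated transcripts were searched for the letters that this machinery reads. A few stretches are shown here because they belong to the genes whose counts are described next. They were read from GENCODE M21 transcripts on GRCm38, 1 transcript per gene. Capitals mark either the CPE letters (TTTTAT or TTTTAAT) or the hexamer (AATAAA or ATTAAA), searched on the transcript strand only with overlaps counted. In these transcripts *Ybx2* was the only member with CPE letters in the last 100 bases, 62 bases from the end, at chr11:69941532-69941561 (plus strand). The same 100 bases of *Ybx2* held no hexamer, and those of *Cpeb4* and *Papola* held neither CPE letters nor a hexamer. In *Cpeb1* the CPE letters closest to the end lay 249 bases before it, at chr7:81347257-81347286 (minus strand). In *Dazl* they lay 373 bases before the end, at chr17:50279752-50279781, and the hexamer at chr17:50279400-50279429 (both minus strand). *Pabpc1l* held no CPE letters in its annotated 3′UTR, and its hexamer lay at chr2:164050505-164050534 (plus strand). In *Papola* the CPE letters closest to the end lay 778 bases before it, at chr12:105838018-105838047 (plus strand), and 1 of the 5 annotated ends of that gene, from another transcript, held them in its last 100 bases.
Ybx2 CPE letters: cctctgaagccaTTTTATgaactgtcatgt
Cpeb1 CPE letters: cttgacttttctTTTTAATttaacgattac
Dazl CPE letters: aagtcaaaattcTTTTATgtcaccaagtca
Dazl hexamer: cttgtatacacgAATAAAacctttttttca
Pabpc1l hexamer: tttgctttatatATTAAAaaatgctgcaaa
Papola CPE letters: ttttaaactaatTTTTATttttaaccagtt

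Within the last 100 bases, 1 of 10 members held CPE letters and 7 of 10 held a hexamer, beside 16.5% and 74.1% of 21768 protein-coding genes. Over the whole annotated 3′UTR, 6 of 10 members held CPE letters. *Cpeb2* had 24 matches in 3778 bases, *Papola* 7 in 1947, *Dazl* 6 in 1852 and *Cpeb1* 4 in 1315. *Ybx2* had 1 match in 414 bases and *Eif4enif1* 1 in 496, while *Pabpc1l* (499 bases), *Eif4e1b* (1055), *Sympk* (100) and *Cpeb4* (45) had none, the last 2 in annotated 3′UTRs too short for the absence to say much. The density was 3.74 matches per kb over the members and 1.34 per kb over 20732 genes. *Cpeb2*, at 6.35 per kb, carried more matches than all other members together, so the density of the members rests largely on it. These letters describe the annotation, and gene counts do not show which end an oocyte uses.

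Levels of the members were compared per length, as CPM per kb of exon. In WT GV oocytes *Dazl* was at 52.2 ± 6.03 (SD, n = 2) and *Cpeb1* at 38.7 ± 0.87, above 95.1% and 94% of 25751 genes. *Eif4e1b* (23.1 ± 1.93), *Ybx2* (20.93 ± 0.871) and *Eif4enif1* (19.16 ± 1.23) followed, and neighbours among these 3 differed by about as much as their SDs. *Pabpc1l* was at 8.147 ± 2.55 and *Papola* at 5.685 ± 0.231, which lay within 1 SD of *Pabpc1l*. *Cpeb4* was at 0.5068 ± 0.114, *Cpeb2* at 0.2376 ± 0.0981 and *Sympk* at 0.2162 ± 0.234, and the last 2 could not be ordered. Of the 3 CPEB members *Cpeb1* was therefore the most abundant, and *Sympk*, which encodes the scaffold symplekin, lay above 33.8% of the ranked genes in this measure.

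The order differed in MII oocytes. In WT MII *Dazl* was at 143.6 ± 2.85, above 98.3% of genes, *Cpeb1* at 30.94 ± 1.75, *Eif4enif1* at 20.71 ± 2.21 and *Eif4e1b* at 18.26 ± 3.22, with the last 2 within their SDs. *Papola* (9.814 ± 0.481) stood above *Ybx2* (4.312 ± 0.673) and *Pabpc1l* (2.578 ± 0.372), where in WT GV *Ybx2* had been above *Papola*. In KO MII *Dazl* was at 87.57 ± 2.44 and *Cpeb1* at 38.58 ± 15.3, followed by *Eif4enif1* (24.91 ± 10.6). *Eif4e1b* (13.2 ± 5.61), *Papola* (12.93 ± 1.87) and *Ybx2* (11.57 ± 6.12) could not be ordered there beyond their spread. *Pabpc1l* (6.753 ± 3.94) lay under *Papola* by more than both SDs, and within the larger SD of *Ybx2*. *Cpeb4*, *Cpeb2* and *Sympk* were the lowest 3 in both groups.

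**Figure D1:**
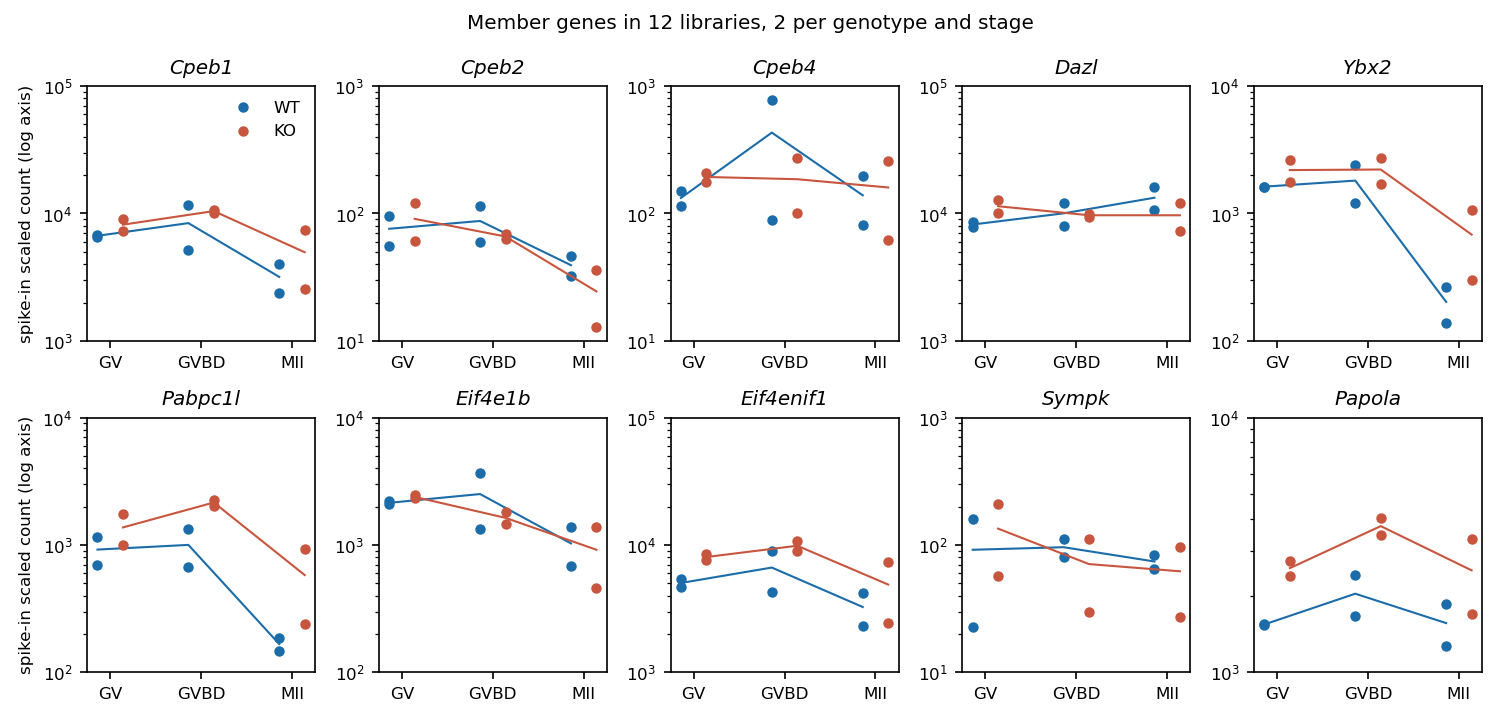
Counts of the 10 genes in 12 libraries, scaled to the ERCC spike-in (vertical log axis, whose range differs between panels), by stage (horizontal axis). Points are libraries, 2 per genotype and stage, and lines join the group means (WT blue, KO red). *Ybx2* and *Pabpc1l* show their lowest values in both WT MII libraries, at 267.2 and 137.3 for *Ybx2*.

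The CPE-binding proteins were examined first. *Cpeb1* (ENSMUSG00000025586, chromosome 7, 81347026 to 81455465, minus strand), the CPEB protein best known for tail lengthening in oocytes, had WT counts of 5704 and 4671 (GV), 8644 and 5879 (GVBD), and 5007 and 4908 (MII), given here and later for replicates 1 and 2. KO counts of *Cpeb1* were 4945 and 5745 (GV), 6513 and 9227 (GVBD), and 7349 and 3587 (MII). The lowest and the highest raw count of *Cpeb1* were both in KO libraries, and the raw counts of the genotypes overlapped at every stage. Scaled to the spike-in, *Cpeb1* in WT was at 6768 and 6587 for GV and at 3994 and 2365 for MII, with no overlap between the stages. The KO values were 9003 and 7329 (GV), 10710 and 10165 (GVBD), and 7355 and 2569 (MII), so that both KO GV libraries lay above both WT GV libraries on this scale. The median log2 difference of all genes was also above 0 there (0.36). Here and later, a lack of overlap between groups only describes the libraries. The share of all genes that show it was not counted.

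*Cpeb2* (ENSMUSG00000039782, chromosome 5, 43233170 to 43289724) and *Cpeb4* (ENSMUSG00000020300, chromosome 11, 31872211 to 31935634) encode paralogs of CPEB1. *Cpeb2* had WT counts of 47 and 68 (GV), 86 and 67 (GVBD), and 58 and 67 (MII), against KO counts of 66 and 48 (GV), 42 and 57 (GVBD), and 36 and 18 (MII). Its lowest counts were those of KO MII. An antisense gene, *Gm7854*, overlaps *Cpeb2*, reached at most 42 counts, and cannot be told apart from it because the use of strand in counting was not given. *Cpeb4* had WT counts of 97 and 106 (GV), 576 and 101 (GVBD), and 246 and 169 (MII). KO counts of *Cpeb4* were 115 and 139 (GV), 61 and 246 (GVBD), and 258 and 86 (MII). The single count of 576 in WT GVBD replicate 1 was the highest of the 12, and replicate 2 of that group was at the GV level.

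*Dazl* (ENSMUSG00000010592, chromosome 17, 50279395 to 50293636, minus strand), which encodes a germ-cell RNA-binding protein that promotes translation of stored mRNAs, had WT counts of 6543 and 6113 (GV), 8975 and 9036 (GVBD), and 20075 and 21921 (MII), the last pair being the highest of the 12 libraries. KO counts of *Dazl* were 6952 and 7944 (GV), 5728 and 9023 (GVBD), and 12100 and 10113 (MII). The MII libraries of both genotypes thus stood above every GV and GVBD library, and WT MII stood above KO MII. After spike-in scaling the picture differed, since WT values were 7763 and 8620 (GV) and 16012 and 10564 (MII), and KO values were 12657 and 10135 (GV) and 12110 and 7244 (MII). WT MII lay above WT GV on this scale too, whereas KO MII and KO GV overlapped.

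*Ybx2* (ENSMUSG00000018554, chromosome 11, 69935796 to 69941605, plus strand) encodes the Y-box protein MSY2, which coats and stores maternal mRNAs. WT counts of *Ybx2* were 1368 and 1151 (GV), 1803 and 1358 (GVBD), and 335 and 285 (MII). KO counts were 1431 and 1390 (GV), 1038 and 2466 (GVBD), and 1063 and 421 (MII). Both WT MII libraries were below the other 10. On the spike-in scale *Ybx2* had WT values of 1623 in each library (GV) and of 267.2 and 137.3 (MII). KO values were 2605 and 1773 (GV) and 1064 and 301.6 (MII), so that KO MII also lay under KO GV, with a wide gap between its libraries.

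*Pabpc1l* (ENSMUSG00000054582, chromosome 2, 164025450 to 164050538, plus strand) encodes the embryonic poly(A)-binding protein, the main cytoplasmic one of the oocyte. WT counts of *Pabpc1l* were 968 and 490 (GV), 993 and 757 (GVBD), and 234 and 305 (MII). KO counts were 545 and 1374 (GV), 1379 and 1850 (GVBD), and 922 and 333 (MII). As for *Ybx2*, the WT MII libraries held the lowest counts of the 12. Spike-in scaled WT values were 1149 and 691 (GV), 1332 and 670.3 (GVBD), and 186.6 and 147 (MII). The KO values were 992.3 and 1753 (GV), 2268 and 2038 (GVBD), and 922.7 and 238.5 (MII). WT and KO libraries overlapped at GV but not at GVBD or MII, where the median log2 difference of all genes was also above 0 (0.23 and 0.30).

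The cap-binding members were *Eif4e1b* (ENSMUSG00000074895, chromosome 13, 54783998 to 54788459), an oocyte form of the cap-binding factor eIF4E, and *Eif4enif1* (ENSMUSG00000020454, chromosome 11, 3202392 to 3244588), which encodes the eIF4E-binding protein 4E-T. *Eif4e1b* had WT counts of 1751 and 1563 (GV), 2752 and 1500 (GVBD), and 1719 and 1421 (MII). KO counts of *Eif4e1b* were 1345 and 1818 (GV), 1102 and 1316 (GVBD), and 1373 and 642 (MII). WT and KO overlapped at GV, while at GVBD both KO libraries were under both WT libraries in raw counts, though not after spike-in scaling (1812 and 1450 against 3690 and 1328). *Eif4enif1* had WT counts of 4558 and 3301 (GV), 6742 and 4805 (GVBD), and 5268 and 4807 (MII), against KO counts of 4681 and 5930 (GV), 6491 and 8209 (GVBD), and 7329 and 3415 (MII). At GV both KO libraries were above both WT libraries. *Eif4enif1* lies whole within the annotated span of *Drg1* on the opposite strand (at most 1478 counts), and reads of shared positions cannot be told apart.

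A poly(A) polymerase and the scaffold symplekin closed the group. *Papola* (ENSMUSG00000021111, chromosome 12, 105784694 to 105838944, plus strand), the canonical poly(A) polymerase, had WT counts of 1301 and 1093 (GV), 1792 and 1885 (GVBD), and 2319 and 2639 (MII). KO counts of *Papola* were 1316 and 2143 (GV), 2458 and 3137 (GVBD), and 3335 and 2360 (MII). Raw WT counts were lowest at GV and highest at MII. Spike-in scaled WT values were 1544 and 1541 (GV), 2403 and 1669 (GVBD), and 1850 and 1272 (MII). The KO values were 2396 and 2734 (GV), 4042 and 3456 (GVBD), and 3338 and 1690 (MII), above both WT libraries except at MII, where they overlapped. *Sympk* (ENSMUSG00000023118, chromosome 7, 19024377 to 19054618) had WT counts of 19 and 114 (GV), 60 and 126 (GVBD), and 105 and 134 (MII), against KO counts of 116 and 45 (GV), 68 and 27 (GVBD), and 97 and 38 (MII). No group of *Sympk* stood apart from the others.

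The change from GV to MII addresses which of these mRNAs were lost when maternal RNA was cleared. A gene was called at an adjusted p under 0.05 in edgeR (Benjamini-Hochberg over all tested genes) and a change of at least 2-fold. In WT 2 of 10 members were called, both lower, beside 30.5% of 18816 tested genes called lower. *Ybx2* fell by 3.01 ± 0.54 (SE) on the log2 scale (adjusted p = 4.58e-07), and its WT MII mean was 12.5% of its WT GV mean. *Pabpc1l* fell by 2.46 ± 0.55 (adjusted p = 7.33e-05), to 18.1%. The spike-in scale follows the shrinking RNA pool, and the median log2 change of all genes in this comparison was −1.06, against −0.22 after TMM scaling, which centres the bulk of genes. The median of the 10 members was −0.79. *Ybx2* and *Pabpc1l* also passed with TMM scaling, at −2.19 (adjusted p = 0.00196) and −1.58 (adjusted p = 0.0199). On the spike-in scale their values stood above those of 14.8% and 21.6% of tested genes. Leaving out WT GV replicate 1 ended the call of *Pabpc1l* and left *Ybx2* called. Fewer transcripts per oocyte, fewer oocytes in a pool, and shorter tails captured less well by oligo(dT) cannot be told apart on the spike-in scale. TMM scaling takes out a factor shared by all genes, such as the number of oocytes in a pool. It does not take out an effect of tail length on capture that differs between genes. The causes of the change were not tested.

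*Dazl* stood at the other end of the group. Its log2 change from GV to MII in WT was 0.70 ± 0.46 (adjusted p = 0.269), above that of 96.7% of tested genes, and its MII mean was 162% of its GV mean. With TMM scaling *Dazl* rose by 1.55 ± 0.14 (adjusted p = 0.00223), beside 7.06% of genes called higher and 17% called lower on that scale, where 1 member was called higher and 2 lower. For this and other rises, more mRNA and a longer tail captured better by oligo(dT) cannot be told apart on either scale. Neither was tested. *Papola* had a log2 change of 0.02 ± 0.49 (adjusted p = 0.987), and of 0.88 (adjusted p = 0.0116) with TMM scaling, which passed the p threshold but not the fold minimum. *Cpeb1* (−1.07 ± 0.48, adjusted p = 0.0728, and 0.0493 with a replicate block) and *Eif4e1b* (−1.06 ± 0.49, adjusted p = 0.0905) lay at the median of all genes, with adjusted p-values of 0.215 and 0.302 after TMM scaling. The DESeq2 Wald test called both, and 4 members in all, beside 5520 of 18816 genes called in either direction. *Eif4enif1* (−0.63 ± 0.47, 0.20 with TMM scaling) and *Sympk* (−0.30 ± 0.75, 0.58 with TMM scaling) changed sign between scalings. *Cpeb2* (−0.95 ± 0.84) and *Cpeb4* (0.07 ± 0.64) did not pass.

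In KO none of the 10 members was called between GV and MII by edgeR, beside 3.28% of 18777 genes called in either direction. At an unadjusted p under 0.05 there was 1 member, *Ybx2*, beside 4626 of 18777 genes. DESeq2 called 0 members and 3068 of 18777 genes. The log2 change of *Ybx2* was −1.68 ± 0.75 (adjusted p = 0.196), with an MII mean at 31.2% of GV. For *Pabpc1l* it was −1.24 ± 0.79 (adjusted p = 0.351), at 42.3%. *Dazl* was at −0.24 ± 0.54 (adjusted p = 0.821), turning to 0.88 with TMM scaling. All 10 log2 changes were under 0, as was the median of all genes (−1.17), and 5 of 10 were above 0 after TMM scaling. The KO MII libraries lay far apart. Without replicate 1, which leaves replicate 2 alone and assumes that it varies like the GV libraries, 8 members were called, all but *Dazl* and *Papola*, beside 11013 of 20437 genes called lower. Without replicate 2 no member was called, beside 3518 of 20829 genes called.

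**Figure D2:**
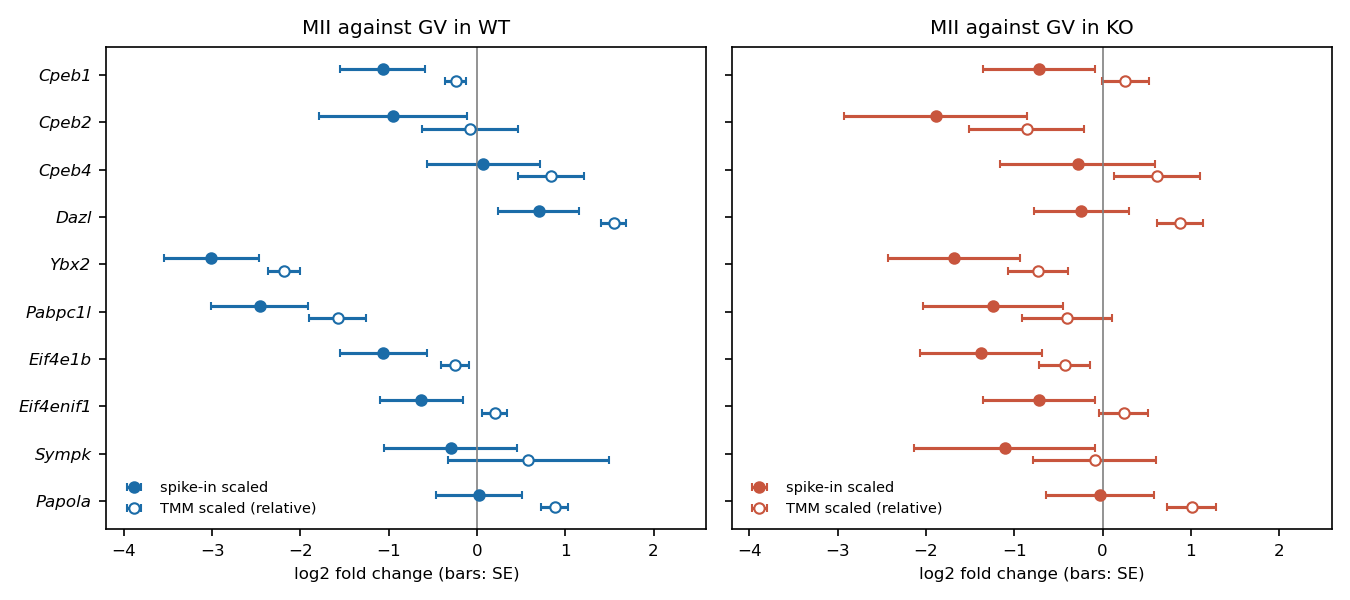
Log2 fold change of MII against GV (horizontal axis) for the 10 genes in WT (left) and KO (right). Filled points are spike-in scaled, open points TMM scaled, and bars are SEs of the edgeR fit (2 libraries per group). In WT *Ybx2* and *Pabpc1l* lie left of 0 on both scales, at −3.01 and −2.46 for the filled points, and *Dazl* lies to the right.

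Whether the GV to MII change differed by genotype was tested as an interaction. No member was called, 0 had an unadjusted p under 0.05, and 0% of 20807 genes passed in edgeR. DESeq2 called 0 members and 154 genes. The KO change minus the WT change was 1.32 ± 0.88 for *Ybx2*, 1.22 ± 0.93 for *Pabpc1l*, −0.93 ± 0.62 for *Dazl* and −0.94 ± 1.22 for *Cpeb2*, each with an adjusted p of 1. The values of *Ybx2* and *Pabpc1l* in KO MII lay above those of WT MII in both libraries, and the interaction did not pass the test for either. Without KO MII replicate 2 no member and 285 of 22974 genes were called.

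The later interval of WT maturation held the same calls by edgeR on the spike-in scale. DESeq2 called 3 members there (*Cpeb1*, *Ybx2* and *Pabpc1l*), beside 5449 of 19211 genes. From GVBD to MII in WT, 2 members were called, both lower, beside 27.1% of genes called lower. *Ybx2* fell by 3.16 ± 0.73 (adjusted p = 2.03e-04) and *Pabpc1l* by 2.58 ± 0.73 (adjusted p = 0.00319), and both calls were lost without WT GVBD replicate 1. The median of all genes was −1.11 and that of the members −1.22. *Dazl* was at 0.41 ± 0.61 (adjusted p = 0.687). After TMM scaling it was at 1.36 (adjusted p = 0.00524) and was called, beside 9.64% of genes called higher. In KO no member was called by edgeR or DESeq2 over this interval, and 2 had an unadjusted p under 0.05 (3755 of 17966 genes did). EdgeR called 7.2% of genes and DESeq2 2261 of 17966. Without KO MII replicate 2 no member and 20 of 19932 genes were called, and without replicate 1 there were 5 members and 6334 of 19455 genes. *Pabpc1l* was at −1.89 ± 0.81 (adjusted p = 0.157) and *Ybx2* at −1.70 ± 0.80 (adjusted p = 0.214).

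From GV to GVBD no member was called by edgeR or DESeq2 in either genotype, and 0 had an unadjusted p under 0.05. In edgeR the background was 0.0511% of genes in WT and 0.22% in KO. DESeq2 called 383 of 19566 genes in WT and 232 of 19064 in KO. *Cpeb4* had the largest value in WT, 1.70 ± 0.88 (adjusted p = 0.98), which rests on WT GVBD replicate 1 (772.4 spike-in scaled counts against 89.44 in replicate 2). In KO the values of *Pabpc1l* (0.65 ± 0.34), *Papola* (0.55 ± 0.26) and *Eif4e1b* (−0.55 ± 0.27) had the smallest p-values, at adjusted p-values of 0.707, 0.693 and 0.694.

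**Figure D3:**
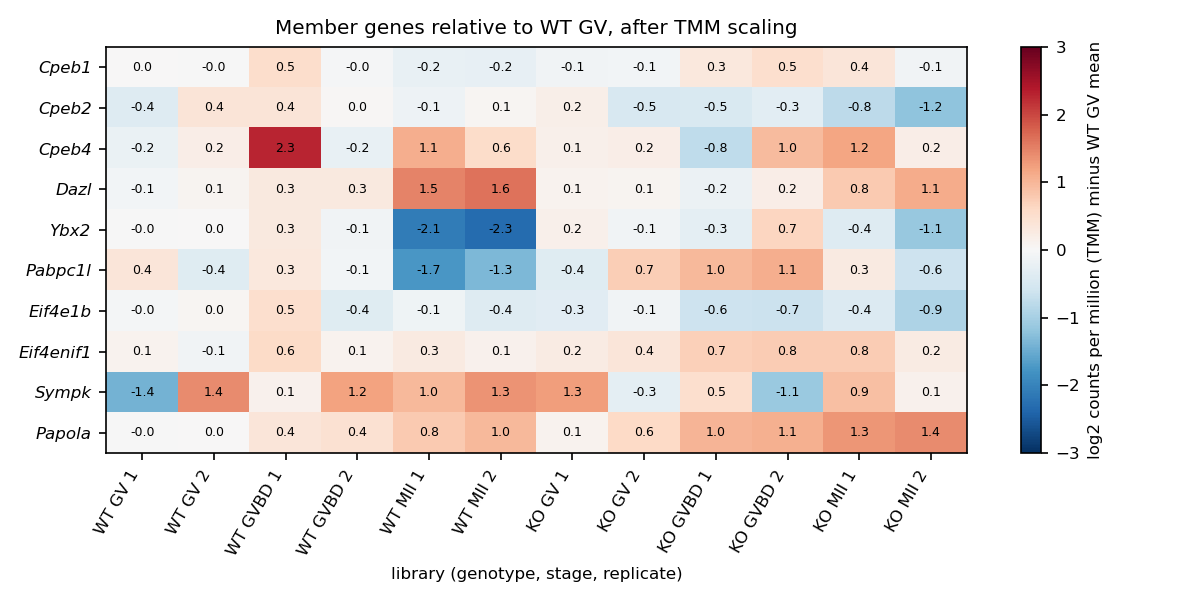
Log2 CPM after TMM scaling, minus the WT GV mean, for each gene (vertical) and library (horizontal). Red is higher and blue lower than WT GV. MII values of *Ybx2* are −2.09 and −2.31 for WT against −0.39 and −1.15 for KO, and those of *Dazl* are 1.48 and 1.62 for WT against 0.79 and 1.11 for KO.

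KO against WT at a stage asks whether loss of ALKBH5 altered the amount of these mRNAs. At GV no member was called by edgeR or DESeq2, and 3 had an unadjusted p under 0.05 (3475 of 19452 genes did). EdgeR called 0.0977% of genes and DESeq2 666 of 19452. All 10 log2 values were above 0 with a median of 0.51, where the median of all genes was 0.36, and 7 of 10 were above 0 after TMM scaling. The 3 were *Papola* (0.73 ± 0.19, adjusted p = 0.17), *Eif4enif1* (0.68 ± 0.17, adjusted p = 0.177) and *Dazl* (0.48 ± 0.18, adjusted p = 0.26). In each of them both KO libraries lay above both WT libraries on the spike-in scale. The same held for *Cpeb1*, *Cpeb4*, *Ybx2* and *Eif4e1b*. Gene counts per ERCC count were themselves higher in KO GV (128 and 111) than in WT GV (105 and 98.9). With TMM scaling *Papola*, *Eif4enif1* and *Dazl* were at 0.43, 0.35 and 0.14 (edgeR adjusted p = 0.455, 0.379 and 0.703).

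At GVBD no member was called by edgeR or DESeq2 and 0 had an unadjusted p under 0.05. EdgeR called 2.54% of genes and DESeq2 901 of 19462. *Pabpc1l* was at 1.11 ± 0.53 (adjusted p = 0.338) with means 2.15 times those of WT, *Papola* at 0.88 ± 0.51 (adjusted p = 0.447) and *Cpeb4* at −1.21 ± 0.76 (adjusted p = 0.49). At MII no member was called by edgeR or DESeq2 and 0 had an unadjusted p under 0.05. EdgeR called 0.803% of genes and DESeq2 346 of 17566. *Pabpc1l* (1.80 ± 0.92, adjusted p = 0.685) and *Ybx2* (1.76 ± 0.91, adjusted p = 0.703) had the largest values, and their KO means were 3.48 and 3.38 times the WT means. For both genes KO MII replicate 1 was several times higher than replicate 2. Without KO MII replicate 2 no member and 542 of 19497 genes were called.

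In a fit of all 12 libraries with a term for stage, no member was called by edgeR, 3 had an unadjusted p under 0.05 (4146 of 22004 genes did), and 1.26% of genes were called. *Pabpc1l* was higher in KO by 1.16 ± 0.36 (unadjusted p = 0.00578 and adjusted p = 0.116 in edgeR). DESeq2 called *Pabpc1l*, beside 1356 of 22004 genes. It was also called by edgeR when KO MII replicate 2 was left out, beside 918 of 23879 genes. *Papola* was at 0.77 ± 0.23 (adjusted p = 0.104), and at 0.50 (adjusted p = 0.04) with TMM scaling, under the fold minimum. *Ybx2* was at 0.81 ± 0.37 (adjusted p = 0.254) and *Eif4enif1* at 0.61 ± 0.29 (adjusted p = 0.27). *Cpeb1* (0.42 ± 0.29) lay close to the median of all genes (0.29). *Dazl* (−0.01 ± 0.24, adjusted p = 0.986), *Cpeb2* (−0.28 ± 0.43), *Cpeb4* (−0.15 ± 0.55), *Eif4e1b* (−0.21 ± 0.33) and *Sympk* (−0.05 ± 0.55) lay under it.

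**Figure D4:**
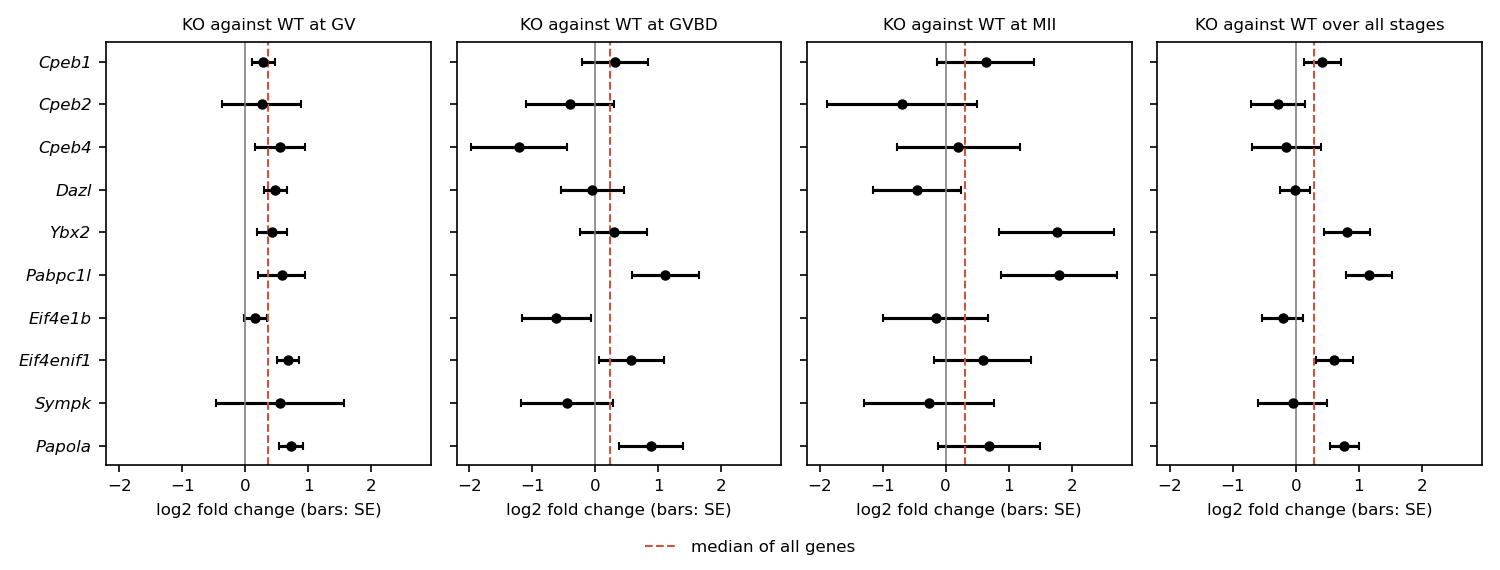
Log2 fold change of KO against WT (horizontal axis), spike-in scaled, for the 10 genes at each stage and over all stages. Bars are SEs of the edgeR fit and the dashed line is the median of all tested genes. At GV all 10 points lie right of 0, and at MII *Pabpc1l* (1.80) and *Ybx2* (1.76) lie farthest right.

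Similarity of patterns across the 12 libraries was described with Pearson's r of log2 CPM after TMM scaling, which shares the libraries, their depth and their stages among all genes. Among the members, *Ybx2* and *Pabpc1l* were most like each other (r = 0.827, n = 12 libraries), as were *Cpeb1* and *Eif4enif1* (0.791) and *Cpeb2* and *Eif4e1b* (0.689). *Cpeb4* was closest to *Eif4e1b* (0.481), *Dazl* to *Papola* (0.524), *Papola* to *Eif4enif1* (0.585) and *Sympk* to *Dazl* (0.382). Of 10659 genes, *Tent5c* (0.962), *Slc39a6* (0.932) and *Spry4* (0.927) were most like *Cpeb1*. *Bcl2l10* (0.983), *Brdt* (0.977) and *Cox8a* (0.977) were most like *Dazl*. The likeness depended on the scale: with spike-in scaling the member closest to *Ybx2* was *Cpeb1* (0.931), to *Dazl* *Cpeb4* (0.607), to *Sympk* *Cpeb2* (0.563), and *Drosha* (0.994) was most like *Cpeb1*, while *Bcl2l10* (0.941) was still most like *Dazl*.

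Other genes of the pathway were counted in lists, read beside the 30.5% of all genes called lower from GV to MII in WT. None was called higher in any list in that comparison on the spike-in scale. Of 7 tested genes among 9 CPE and other 3′UTR binding proteins, 0 were called by edgeR, 1 had an unadjusted p under 0.05, and the lowest adjusted p was that of *Nanos1*, a partner of Pumilio, at −1.26 ± 0.58 (adjusted p = 0.0863). Of the 20 genes of the cleavage and polyadenylation machinery, 4 were called lower. They were *Cpsf4* (−2.98 ± 0.72, adjusted p = 2.87e-04), *Fip1l1*, *Nudt21* and *Clp1*, all subunits of the 3′ end processing complexes, and the call of *Cpsf4* was lost with TMM scaling (adjusted p = 0.117).

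Among 9 mRNP storage proteins 3 were called lower. *Zar1l*, a relative of the maternal RNA-binding protein ZAR1, had WT counts of 41792 and 28366 (GV) and of 2363 and 2650 (MII), and fell by 4.82 ± 0.52 (adjusted p = 3.42e-18). The others were *Ybx3*, a Y-box relative of *Ybx2*, which fell by 3.58 ± 0.54 (adjusted p = 1.12e-09), and *Patl2*. Of 7 tested genes among 8 poly(A)-binding proteins and partners, 2 were called lower, *Paip2*, an inhibitor of poly(A)-binding protein (−2.56 ± 0.50, adjusted p = 3.75e-06), and *Pabpc1*, a widely expressed poly(A)-binding protein (adjusted p = 8.62e-04). *Pabpc1* lost its call with TMM scaling (adjusted p = 0.288).

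Of 11 tested genes among 12 of the cap-binding complex, 3 were called lower, namely *Eif4e2*, *Eif4b* and *Eif4e*. *Eif4e2*, an eIF4E relative that represses translation, had WT counts of 3982 and 3868 (GV) and of 503 and 538 (MII), and fell by 3.95 ± 0.54 (adjusted p = 1.09e-11). The 12 dormant mRNAs that are recruited in maturation included 0 called genes by edgeR on the spike-in scale and 0 at an unadjusted p under 0.05, with a median log2 change of 0.38, and 8 of 12 lay above 0. *Slbp*, the histone mRNA-binding protein, had the lowest adjusted p of this list (0.83 ± 0.45, adjusted p = 0.156), and rose by 1.67 with TMM scaling (adjusted p = 0.00158). Its raw WT counts were 10522 and 9599 (GV) and 36542 and 35739 (MII). With TMM scaling the split of calls was 8 higher and 0 lower among the dormant mRNAs, 3 higher and 1 lower in the cleavage and polyadenylation machinery, and 2 higher and 2 lower among the mRNP storage proteins. It was 1 higher and 1 lower among the poly(A)-binding proteins and partners, 1 higher and 2 lower in the cap-binding complex, and 0 among the CPE and other 3′UTR binding proteins, beside the 7.06% and 17% of all genes. The genes called higher on that scale included *Ccnb1* and *Mos*, which encode cyclin B1 and the kinase of the second arrest, with *Cpsf2*, *Cstf1* and *Tent2* of the machinery, *Ybx1* and *Lsm14a* of the storage proteins, *Paip1* and *Eif4e3*. The log2 changes of *Ccnb1* and *Mos* with TMM scaling were 1.13 (adjusted p = 0.00373) and 1.39 (adjusted p = 0.00503), against 0.27 ± 0.43 and 0.52 ± 0.46 on the spike-in scale. For the genes called higher, as for *Dazl*, more mRNA and a longer tail captured better cannot be told apart. The called genes other than *Cpsf4*, *Zar1l*, *Paip2* and *Eif4e2* were named after their values were seen.

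In KO, 2 of 65 tested genes of these lists were called, beside 3.28% of all genes, between GV and MII, *Zar1l* (−4.03 ± 0.67, adjusted p = 0.0312) and *Eif4e2* (−3.79 ± 0.73, adjusted p = 0.0366), both lower on either scale, and TMM scaling added 4 calls higher (*Tent4a*, *Eif4e3*, *Eif4a2* and *Plat*), beside 1.16% of all genes. Between KO and WT over all stages 1 of 67 tested genes of the 6 lists was called, close to the 1.26% of all genes, namely *Pabpn1l*, which encodes a poly(A)-binding protein of the oocyte cytoplasm. Its WT counts were 10745 and 7797 (GV), 3050 and 5143 (GVBD), and 10605 and 12860 (MII). The KO counts were 10511 and 14159 (GV), 15464 and 14345 (GVBD), and 16649 and 23076 (MII), so that the genotypes stood apart at GVBD and MII. *Pabpn1l* was higher in KO by 1.36 ± 0.28 on the log2 scale over all stages (adjusted p = 0.0336), and by 1.11 with TMM scaling (adjusted p = 0.0449). At GVBD alone it was higher by 2.25 ± 0.53 (adjusted p = 0.0233), a call that TMM scaling lost (adjusted p = 0.121). No gene of the lists was called at GV or MII by edgeR, and none in the genotype difference of the GV to MII change.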

How the data were processed

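Polyadenylated RNA of pooled mouse oocytes was measured in 12 libraries. The study's methods describe SMART-seq with an ERCC spike-in, while the labels describe an oligo(dT) bulk preparation. The deposited values are raw counts per gene, which the authors made without normalization on GRCm38. The submitters' processing notes list cutadapt 1.9, HISAT2 2.0.4 and StringTie 1.3.4d. The annotation release, the use of strand and the counting step are not given in the sources used here. PCR reads without molecular identifiers are not independent molecules.

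Counts of all genes were fitted with edgeR 4.0.16 (glmQLFit, glmQLFTest, filterByExpr, R 4.3.3) on the groups compared, with library sizes in proportion to the summed ERCC counts. Genes were called at a Benjamini-Hochberg adjusted p under 0.05 over all tested genes and an absolute log2 fold change of at least 1. The fit was also run on simulated counts, and the outcome is not reported here. The alternatives comprised scaling by TMM or by median of ratios, a spike-in total from ERCC sequences with 10 or more counts, other filters on low counts, DESeq2 1.42.0, a single model of all libraries, calls without a fold minimum, a block for replicate number, and fits that dropped 1 library at a time. Symbols matched 52073 of 56691 genes (91.9%). A pseudocount of 0.5 was used for log2 CPM.

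The members and lists were chosen with earlier results of these data known. All members are named. Of other listed genes, the plan was to name those called between KO and WT over all stages and the lowest adjusted p per list from GV to MII in WT. Further listed genes called from GV to MII are also named, a choice made after their values were seen. For *Cpeb1* and *Dazl* the 3 genes of most similar pattern with a mean of at least 50 counts are named. Proteins are not shown. A sequence stretch of 1 member is not reported here.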

Additional observations from a re-analysis of the deposited data

How the results depend on the processing

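The fits rest on 2 libraries per group, and 1 library often decided a call. For single genes, 397 of 460 alternative values kept their direction and side of the threshold, and 146 of 165 counts of members called equalled the reported count (151 lay within 1.5 times of it). In KO against WT over all stages 1 member (*Pabpc1l*) instead of 0 was called without a filter on low counts (1181 of 33089 genes). It was also called with at least 10 counts in every library (821 of 12799 genes) and by DESeq2 (1356 of 22004). With single libraries left out 0 to 1 members were called (1 without KO MII replicate 2), beside 63 to 918 genes. The background moved more: over settings that kept all libraries, genes called between KO and WT ranged from 0 to 666 at GV (19 as reported), 12 to 953 at GVBD (494), 2 to 346 at MII (141) and 274 to 1356 over all stages (278). They ranged from 1 to 528 (10) and 0 to 516 (42) from GV to GVBD in WT and KO, 3854 to 6099 (5339) and 411 to 2443 (1293) from GVBD to MII, 3839 to 5882 (5821) and 222 to 3068 (616) from GV to MII, and 0 to 346 (0) for the interaction. From GVBD to MII, leaving out libraries gave 0 to 2 members in WT (1 without WT MII replicate 2, *Ybx2*) and 0 to 5 in KO (5 without KO MII replicate 1, 0 reported), beside 1852 to 5297 and 20 to 6334 genes called. From GV to MII it gave 1 to 5 in WT (1 without WT GV replicate 1, 5 without WT MII replicate 1) and 0 to 8 in KO, beside 2853 to 5347 and 39 to 11075 genes. For WT from GV to MII, median-of-ratios scaling called 4 members (*Dazl*, *Ybx2*, *Pabpc1l*, *Papola*), beside 4825 of 18816 genes. DESeq2 called 4 (*Cpeb1*, *Ybx2*, *Pabpc1l*, *Eif4e1b*), beside 5520 of 18816. The causes were not tested.

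Deviations of same-numbered libraries correlated between −0.22 and 0.24 over 15 pairs of groups, with 4 above 0.1 and 5 under −0.1. With 2 libraries per group, these values cannot decide whether the replicate numbers pair the libraries. With a replicate block, 4 members were called from GVBD to MII in WT, beside 6099 of 19211 genes. In KO 1 was called (*Pabpc1l*, adjusted p = 0.0396 in edgeR), beside 2443 of 17966 genes. From GV to MII in WT 3 were called, beside 4973 of 18816 genes, with *Cpeb1* added (adjusted p = 0.0493 in edgeR). Signs turned there for *Cpeb4* (−0.05), *Sympk* (0.24) and *Papola* (−0.01).

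Signs also turned with scaling. From GV to MII in WT, TMM scaling gave 0.20 for *Eif4enif1* and 0.58 for *Sympk*, and median-of-ratios scaling 0.32, 0.77 and, for *Cpeb2*, 0.06. In KO, TMM scaling gave 0.26 for *Cpeb1*, 0.62 for *Cpeb4*, 0.88 for *Dazl*, 0.24 for *Eif4enif1* and 1.01 for *Papola*, and median-of-ratios scaling 0.27, 0.62, 0.90, 0.25 and 1.03. With single libraries left out, values crossed 0 over all stages for *Cpeb4* (−0.54 to 0.54), *Dazl* (−0.11 to 0.13), *Eif4e1b* (−0.45 to 0.07) and *Sympk* (−0.43 to 0.19). They did so from GV to MII in WT for *Cpeb4* (−0.70 to 0.57), *Sympk* (−1.12 to 1.71) and *Papola* (−0.28 to 0.26). In KO they did for *Cpeb4* (−1.65 to 0.42), *Dazl* (−0.65 to 0.09), *Sympk* (−2.29 to 0.11) and *Papola* (−0.60 to 0.38). *Ybx2* (−3.56 to −2.60) and *Pabpc1l* (−2.78 to −2.05) stayed under 0 in WT. The filter on spike-in scaled sizes, chosen after seeing the data, changed no count of members called.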
